A study of Mus musculus with 12 samples.

Results

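Catalase deficiency was examined here in bone that had received no ethanol: 3 femoral shaft libraries from Cat -/- mice and 3 from Cat +/+ mice, all gavaged with PBS, out of the 12 libraries of the series. All were male mice kept on regular chow to 12 weeks of age, gavaged on 4 consecutive days and killed 6 hours after the last gavage. Each library was made from the pooled femoral shaft RNA of 2 mice, after the marrow had been spun out of the bones. The other 6 libraries, 3 of each genotype, came from mice given 3, 3, 4 and 4.5 g of ethanol per kg of body weight on the 4 days, from a 31.5% (v/v) solution, in place of an equal volume of PBS. They share no library with the PBS comparison and are given beside it. The libraries keep their label numbers: knockout 1, 2 and 3 and wild type 7, 8 and 9 for PBS, knockout 4, 5 and 6 and wild type 10, 11 and 12 for ethanol. The sources used here do not give the strain background of the mice, the part of Cat that was altered or whether the wild types were littermates. Every gene with enough counts was included, which was 18161 of the 49315 genes in the count table.

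Catalase is a heme enzyme of the peroxisome, a small organelle that shortens very long and branched fatty acids and makes plasmalogens. Several peroxisomal oxidases release hydrogen peroxide, and catalase turns it into water and oxygen. Glutathione peroxidases and peroxiredoxins remove peroxide in the cytosol and mitochondria, and NADPH oxidases are a further source of it. In bone, reactive oxygen species are known for a part in osteoclast formation, and catalase can also oxidise ethanol. The comparison asks what the lack of catalase changes in the shaft before any ethanol is given.

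The 6 PBS libraries held 22158350 to 28789308 counts. Replicates correlated across genes at 0.991 to 0.993 (Pearson's r of log2 levels) in knockout bone and at 0.970 to 0.988 in wild-type bone. Wild-type libraries 8 and 9 lay apart from the others on the first principal component, which took 57.3% of the variance, and they also carried the most counts of skeletal muscle genes, as given below. Levels are counts-per-million (CPM) after TMM scaling of library sizes and are not divided by gene length, so they are compared between libraries and not between genes. Differences are log2 differences, knockout minus wild type, from edgeR's quasi-likelihood test, with Benjamini-Hochberg adjustment over all tested genes and a threshold of 0.05 on the adjusted p. Since each pool is labelled as a separate sample but nothing says how litters or cages were spread, the p-values measure the spread between these pools.

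Only 2 genes passed that threshold, and both fell: Cat itself and Cd59a, which starts 0.611 Mb from the start of Cat on chromosome 2. That was 0.011% of the tested genes in the lower direction and 0% in the higher direction. The next smallest adjusted p of any gene was 0.605. Without adjustment, 599 genes (3.3%) were higher and 751 genes (4.14%) lower at p under 0.05, which makes 7.43% in either direction. These counts were 281 and 199 without wild-type library 8 and 1013 and 2171 without wild-type library 7. In 1631 genes (8.98%) every knockout library was above every wild-type library, and in 938 genes (5.16%) every knockout library was below. The median log2 difference of all genes was -0.007. Genes other than Cat and Cd59a are therefore given with their values and unadjusted p, as a description.

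Cat (ENSMUSG00000027187, GRCm38 chr2:103453849-103485160, minus strand) stood at 70.05, 65.95 and 66.5 CPM in knockout libraries 1, 2 and 3. In wild-type libraries 7, 8 and 9 it stood at 128, 152 and 175 CPM. The groups did not overlap, and the knockout level was 0.446 of the wild-type level, so transcripts counted to the gene were reduced and not absent. The log2 difference was -1.17 (SE 0.102, adjusted p = 0.0020 by edgeR), and in the ethanol libraries it was -1.16 (SE 0.102). The adjusted p was 0.048 when only the 6 PBS libraries were fitted. Counts per gene do not show which exons the remaining reads covered.

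Cd59a (ENSMUSG00000032679, chr2:104095801-104115354, plus strand) encodes a membrane-anchored protein that blocks the last step of complement attack on host cells. Its level was 8.57, 10.7 and 11.2 CPM in the knockout libraries against 23.4, 29.7 and 34.9 CPM in the wild types. The groups were far apart, with every knockout library under 12 CPM. The log2 difference was -1.53 (SE 0.146, adjusted p = 0.0024 by edgeR), with an adjusted p of 0.055 when only the 6 PBS libraries were fitted, and under ethanol it was -1.85 (SE 0.147). The difference between the 2 gavages was 0.32 (SE 0.203), which did not pass the test (unadjusted p = 0.139). Its near copy Cd59b (chr2:104069849-104091187) stood at 1.01, 1.22 and 1.65 CPM in knockout bone and at 2.74, 1.89 and 2.55 CPM in wild-type bone, a log2 difference of -0.89 (SE 0.269, unadjusted p = 0.0064). Of the overlapping 50-base windows of their transcripts the 2 genes share 70, which is 3.87% of those in Cd59a and 5.32% of those in Cd59b. The split of reads between the copies is uncertain over that part.

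Because the only 2 genes that passed the test lie in one region, the 250 bases before each start are shown, from RefSeq on GRCm38.p6, 5′ to 3′ on the gene's own strand. Capitals mark matches, on either strand, to the CCAAT box (CCAAT) and the GC box (GGGCGG), and TATAAA was searched as well.
Cat, chr2:103485154-103485403, minus strand: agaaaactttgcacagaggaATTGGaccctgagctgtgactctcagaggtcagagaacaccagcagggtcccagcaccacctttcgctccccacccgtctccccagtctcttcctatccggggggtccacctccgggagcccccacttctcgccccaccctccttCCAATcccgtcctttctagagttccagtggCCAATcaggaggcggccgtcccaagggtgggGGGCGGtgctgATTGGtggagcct
Cd59a, chr2:104095551-104095800, plus strand: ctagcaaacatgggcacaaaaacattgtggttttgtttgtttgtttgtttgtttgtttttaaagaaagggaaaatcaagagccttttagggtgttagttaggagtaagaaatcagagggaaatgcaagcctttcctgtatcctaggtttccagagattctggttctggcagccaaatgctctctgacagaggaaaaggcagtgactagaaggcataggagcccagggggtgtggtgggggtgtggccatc
The Cat sequence is 62% G and C with 9 CpG pairs, 4 CCAAT matches at 230, 85, 55 and 13 bases before the start and 1 GC box at 24 bases. The Cd59a sequence is 44.8% G and C with 0 CpG pairs and 0 matches to any of the motifs. TATAAA was in neither, and it occurs in 12.4%, CCAAT in 33.8% and GGGCGG in 32.7% of the 32851 RefSeq promoters of that length. With 0 matches in Cd59a, no searched motif could be common to both, and shared control of the 2 genes was not tested.

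**Figure D1:**
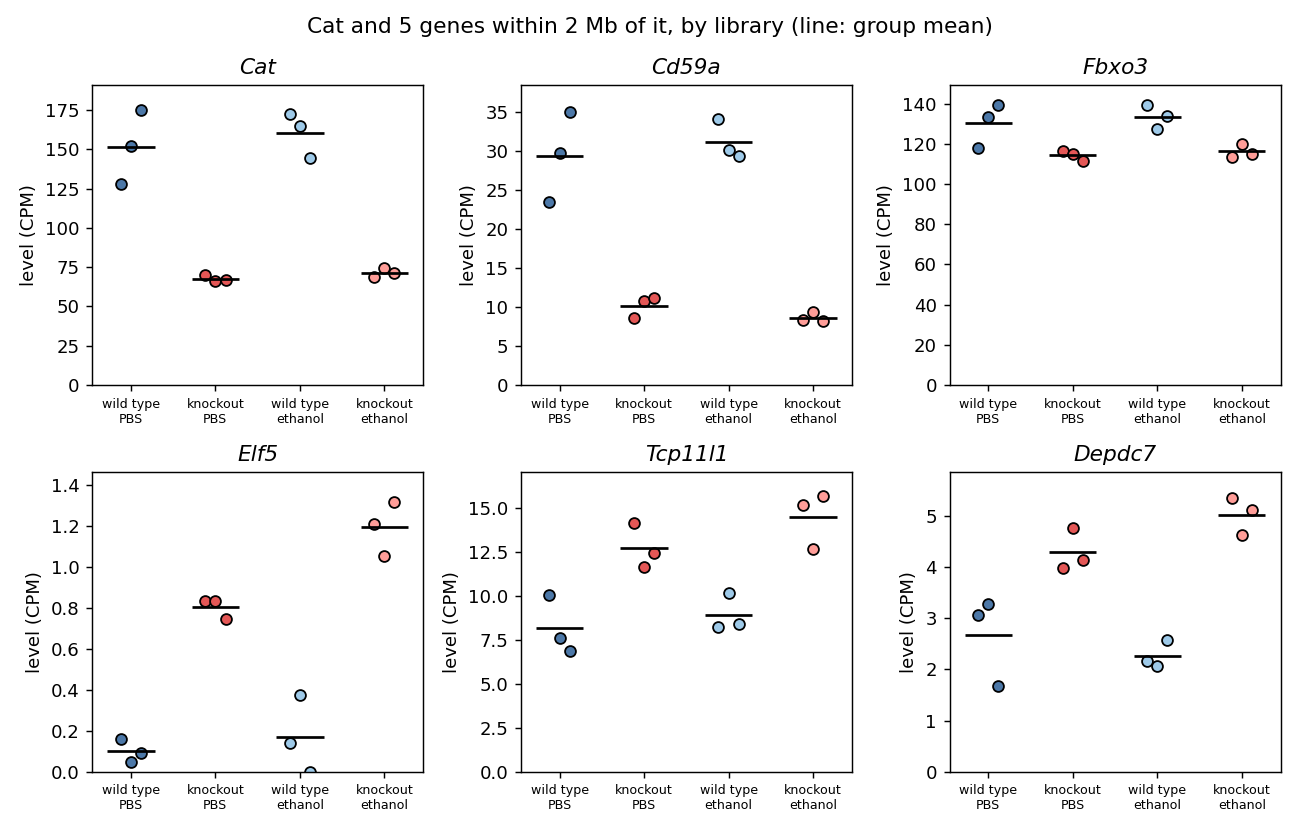
Level in counts-per-million (CPM, vertical axis from 0) of Cat and 5 genes near it in each of the 12 libraries, by genotype and gavage; points are libraries and lines are group means. Under each gavage the knockout points of Cat, Cd59a and Fbxo3 lie below all wild-type points, and those of Elf5, Tcp11l1 and Depdc7 lie above them.

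Genes near Cat had small p-values in a larger share than genes elsewhere, under PBS mostly at higher coordinates than Cat. Of the 18 tested genes that start within 1 Mb of the start of Cat, 7 (38.9%) had an unadjusted p under 0.05, as did 10 of 38 (26.3%) within 2 Mb and 16 of 73 (21.9%) within 10 Mb. These counts include Cat itself; without it they were 6 of 17 (35.3%), 9 of 37 (24.3%) and 15 of 72 (20.8%). The share was 7.38% in all other genes and 6.13% on the rest of chromosome 2. Within 10 Mb, 8 of the 16 were higher and 8 lower. Elf5 was the only one of them at lower coordinates than Cat, and the rest, apart from Cat itself, lay at higher coordinates. Under ethanol, Elf5 was not alone on the lower side, where Pamr1 and Gm13919, among others, had a p under 0.05. In the ethanol libraries 13 of the 73 genes had a p under 0.05, and 9 genes had one in both gavages, each with the same sign; those 9 are Cat, Cd59a, Elf5, Gm13881, Fbxo3, Tcp11l1, Depdc7, Kif18a and Ccdc34. Over all other genes, 200 of the 1334 under PBS and of the 1037 under ethanol were shared with the same sign, and 7 with the opposite sign.

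The nearest neighbour on one side of Cat, Elf5, is a transcription factor gene of epithelia such as mammary gland and placenta. It lies tail to tail with Cat, with 2859 bases between the ends of the 2 genes. It was counted 23, 24 and 18 times in the knockout libraries and 4, 1 and 2 times in the wild types, which corresponds to 0.832, 0.833 and 0.744 CPM against 0.161, 0.0497 and 0.0926 CPM. The log2 difference was 2.88 (95% interval 1.59 to 4.18, unadjusted p = 4.1e-04) under PBS and 2.72 (SE 0.527) under ethanol. Levels stayed below 1 CPM in the 6 PBS libraries and were 1.21, 1.05 and 1.31 CPM in the knockout ethanol libraries, and the sources used here do not say whether reads were assigned by strand. Abtb2, the nearest tested gene on the other side, had overlapping groups (12.2 to 14.97 CPM against 13.9 to 19.5 CPM) and a log2 difference of -0.35 (SE 0.133) under PBS and of 0.001 under ethanol.

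Tcp11l1 and Depdc7 lie 1.23 and 1.26 Mb from Cat. Tcp11l1 stood at 14.1, 11.7 and 12.4 CPM in knockout bone and at 10.1, 7.61 and 6.85 CPM in wild-type bone, with a log2 difference of 0.64 (SE 0.153, unadjusted p = 0.0013). Its ethanol value was 0.70 (SE 0.152). Depdc7 stood at 3.98, 4.76 and 4.13 CPM against 3.06, 3.28 and 1.67 CPM, a log2 difference of 0.68 (SE 0.216) under PBS and of 1.15 (SE 0.219) under ethanol. For both genes, and within each gavage, the 3 knockout libraries were all above the 3 wild types. Fbxo3, which encodes a substrate-binding part of a ubiquitin ligase and starts 0.543 Mb from Cat, differed less: 116, 115 and 112 CPM against 118, 133 and 139 CPM, a log2 difference of -0.19 (SE 0.067) that was -0.20 under ethanol.

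Other genes of the region at p under 0.05 under PBS had smaller or less steady values. Gm13881 had a log2 difference of 0.95 under PBS and 0.47 under ethanol. Hipk3, a kinase gene, was at -0.41 with wild-type libraries 8 and 9 at 172 and 176 CPM and library 7 at 122 CPM, near the knockout range of 115 to 121 CPM. Further out, Kif18a, a mitotic kinesin, was at 0.28 and 0.25 in the PBS and ethanol libraries, and Ccdc34 at 0.20 in each. Fibin (0.57 and 0.23), Emc4 (-0.18 and -0.13) and Fmn1, which encodes an actin-nucleating formin (0.38 and -0.13), had an ethanol p above 0.05. Bdnf was counted too rarely to weigh, at 0.145, 0.139 and 0.0827 CPM against 0.242, 1.09 and 0.695 CPM.

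**Figure D2:**
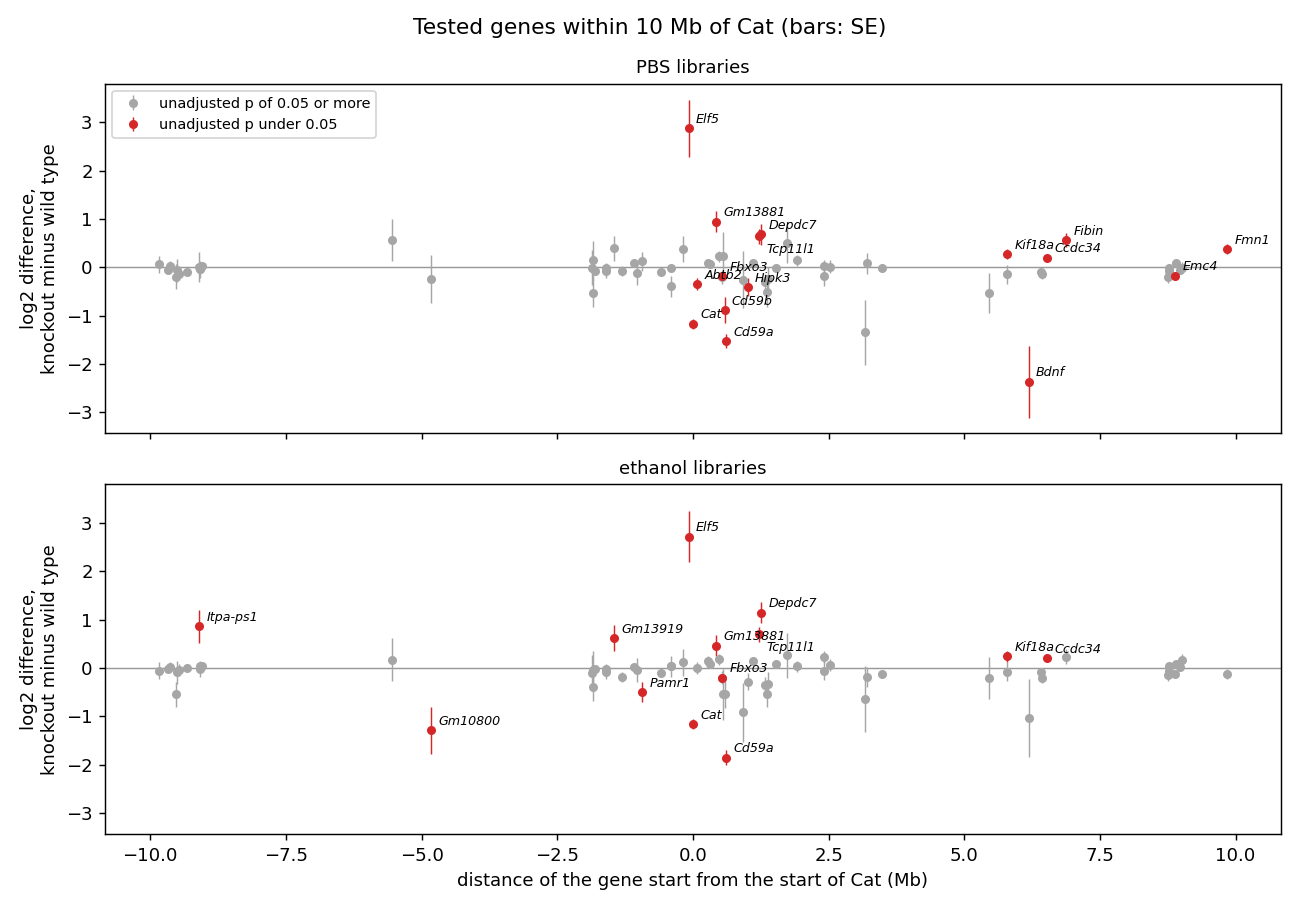
Log2 difference, knockout minus wild type (vertical axis, bars are SE), of the 73 tested genes within 10 Mb of Cat against the distance of their starts from the start of Cat (horizontal axis, Mb), in the PBS and the ethanol libraries. Red points have an unadjusted p under 0.05, and within 2 Mb of Cat 10 of 38 genes under PBS do, Cat included.

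Over the whole genome, the 12 higher and 12 lower genes with the smallest unadjusted p, among named genes at 1 CPM or more whose groups did not overlap, were mostly small differences with tight replicates. Since this comparison chose them, the PBS values are a description. The ethanol log2 differences come from other libraries, but their SE and p share an estimate of spread with the PBS test. A small PBS p also selects for a small spread, so the ethanol p is not independent. Among the higher genes, Phyhip, named for its binding to the peroxisomal enzyme phytanoyl-CoA hydroxylase, stood at 22.9, 22.5 and 25.4 CPM in knockout bone and at 15.9, 12.6 and 16.9 CPM in wild-type bone. Its log2 difference was 0.64 (SE 0.163, unadjusted p = 0.0021), and in the ethanol libraries it was 0.63 (SE 0.162). Wdhd1, a DNA replication factor, was at 117, 111 and 112 CPM against 101, 86.6 and 91.0 CPM, a log2 difference of 0.28 under PBS and 0.20 under ethanol. Mir703, a small RNA gene whose counts in such a library are uncertain, was at 0.58 and 0.47. These 3 and Tcp11l1 had the same sign and p under 0.05 in both gavages.

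The remaining 8 higher genes did not have that. Scara3, a scavenger receptor gene, stood at 71.3, 70.4 and 78.9 CPM against 62.4, 51.5 and 60.2 CPM (log2 difference 0.34, SE 0.085), and its ethanol value was 0.01. Cep164, a centriole gene, had a log2 difference of 0.33 under PBS and 0.12 under ethanol. Ccdc74a (0.57), Zfp90 (0.60), Cd300ld3 (0.72) and Rgs9 (1.57) were low genes, at under 5 CPM in all 6 libraries, with ethanol values of -0.07, -0.001, -0.35 and -0.45. Fibin and Fmn1 were given with the region above.

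Among the 12 lower genes, Cat, Cd59a, Sfxn5 and Ybx2 had the same sign and p under 0.05 in both gavages. Sfxn5, a mitochondrial carrier gene, stood at 23.2, 24.1 and 23.6 CPM in knockout bone and at 31.2, 35.3 and 26.7 CPM in wild-type bone, a log2 difference of -0.40 under PBS and -0.23 under ethanol. Rab24, a small GTPase gene linked to autophagy, was among the tightest: 72.5, 72.2 and 72.0 CPM against 83.5, 91.6 and 85.3 CPM, a log2 difference of -0.27 (SE 0.057, unadjusted p = 6.1e-04), with 0.03 under ethanol. Atg3, an enzyme that lipidates LC3 in autophagy, was at 63.2, 64.0 and 63.6 CPM against 69.2, 76.8 and 73.5 CPM (log2 difference -0.20), with -0.08 under ethanol. Ak4, a mitochondrial adenylate kinase, stood at 7.27, 6.63 and 6.53 CPM against 10.9, 8.95 and 10.3 CPM (log2 difference -0.56), with -0.07 under ethanol. Prok2, a secreted ligand made by neutrophils, was at 1.27, 0.938 and 0.703 CPM against 1.85, 2.49 and 3.47 CPM (log2 difference -1.41), with 0.16 under ethanol. Zbtb18 (-0.24), Mboat1 (-0.51) and Fam118b (-0.28) had ethanol values of -0.11, -0.21 and -0.09. Map2k3os, at -0.80, is an antisense gene whose reads cannot be told from those of its partner without strand, and its ethanol value was 0.17. No tested gene had a difference between the gavages that passed the adjusted threshold (0 of 18161 by the interaction term of the edgeR fit, with 359 at an unadjusted p under 0.05).

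No other enzyme that removes peroxide passed the test. Of 24 genes in that list, 1 passed the adjusted threshold, Cat itself, and 3 had an unadjusted p under 0.05, all lower: Cat, Glrx and Sod2. Of all genes, 4.14% were lower at that p. The list's median log2 difference was -0.10, beside -0.007 for all genes, and 11 members were higher and 13 lower. For 16 of the 24 the 95% interval of the difference lay within 0.5 of 0 on the log2 scale, and for 22 within 1. The interval for Prdx1, a cytosolic peroxiredoxin, was -0.11 to 0.13, and that for Prdx6 was -0.29 to 0.07.

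Gpx1, the main cytosolic glutathione peroxidase, came nearest to a higher level. It stood at 1072, 1044 and 1107 CPM in the knockout libraries and at 932, 930 and 944 CPM in the wild types. The groups did not overlap, and the log2 difference was 0.20 (SE 0.091, unadjusted p = 0.050), with 0.18 (SE 0.091) under ethanol. Prdx2, the peroxiredoxin abundant in red cells, was at 543, 498 and 559 CPM against 417, 369 and 501 CPM (log2 difference 0.32, SE 0.161), with overlapping groups and 0.36 under ethanol. Txnrd2, the mitochondrial thioredoxin reductase, was at 53.8, 49.5 and 51.6 CPM against 42.2, 40.3 and 47.6 CPM (log2 difference 0.25, SE 0.142), with 0.39 under ethanol. Erythroid genes were higher in the same 3 libraries, as given below, and their part in these values was not tested.

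Of the lower members, Glrx, a cytosolic glutaredoxin, stood at 65.9, 68.7 and 64.4 CPM against 82.8, 98.2 and 69.6 CPM (log2 difference -0.33, SE 0.121). Sod2, the mitochondrial superoxide dismutase that makes peroxide from superoxide, was at 50.6, 57.4 and 56.4 CPM against 51.2, 103 and 96.6 CPM. Wild-type library 7 was thus at the knockout level, and the log2 difference of -0.61 (SE 0.246) rested on libraries 8 and 9. Without wild-type libraries 8, 9 and 12 the median of the list was 0.09.

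**Figure D3:**
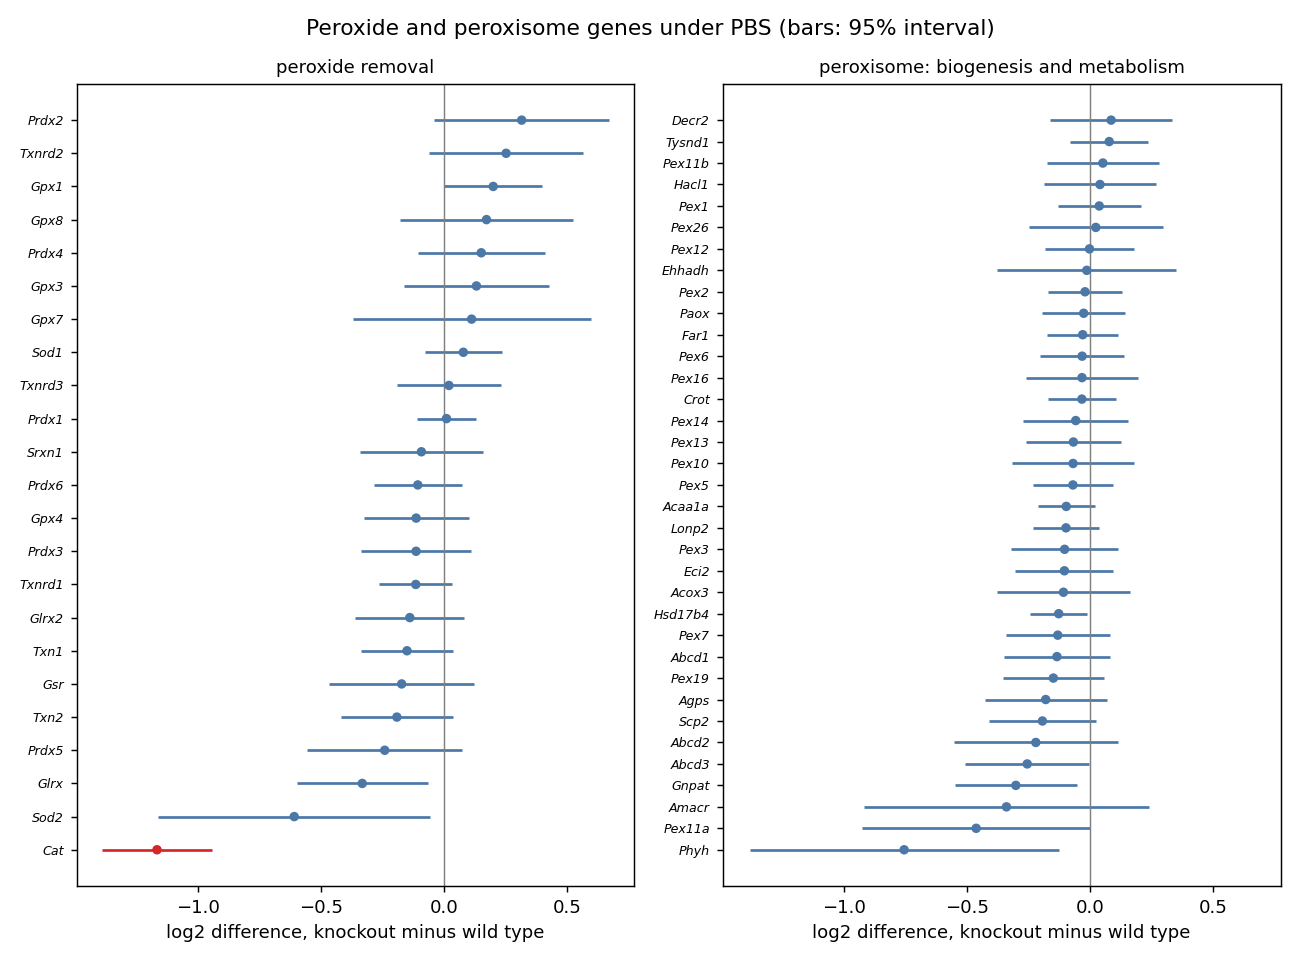
Log2 difference, knockout minus wild type, under PBS (horizontal axis, bars are 95% intervals) for the genes of peroxide removal and of the peroxisome with a wild-type mean of at least 5 CPM, as far as they are reported here. Cat, in red, is the gene of these lists that passed the adjusted threshold, and most other intervals include 0.

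Genes that build the organelle holding catalase differed little. Of 16 peroxins, the proteins that build peroxisomes and import their enzymes, 0 passed the adjusted threshold and 1 had an unadjusted p under 0.05, Pex11a, with a log2 difference of -0.46 (SE 0.212). At that p, 7.43% of all genes differed in either direction. For 15 of the 16 the 95% interval lay within 0.5 of 0. Pex5, the receptor that imports most matrix enzymes, stood at 45.7, 48.0 and 43.8 CPM against 48.6, 51.5 and 44.3 CPM, with an interval of -0.23 to 0.09. Pex14, its docking partner, had an interval of -0.27 to 0.16.

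The peroxisomal metabolic enzymes were lower more often: of 23 tested members (of 26 listed) 19 were lower and 4 higher, with a median of -0.11 under PBS and under ethanol. None of the 23 passed the edgeR test, and 4 had an unadjusted p under 0.05, all lower, beside 4.14% of all genes in that direction. Of all 18161 tested genes, 9411 were lower on average. Hsd17b4, the multifunctional enzyme of peroxisomal beta oxidation, stood at 60.6, 60.9 and 61.5 CPM against 64.7, 70.0 and 65.2 CPM, a log2 difference of -0.13 (SE 0.053) without overlap. Gnpat, which starts plasmalogen synthesis, was at 81.4, 88.7 and 83.4 CPM against 84.3, 114 and 114 CPM (-0.30). Phyh, which starts the breakdown of phytanic acid, was at 33.0, 40.4 and 34.7 CPM against 36.3, 74.7 and 71.7 CPM (-0.76), and Abcd3, a fatty acid importer, was at -0.26. In Gnpat and Phyh wild-type library 7 was next to the knockout libraries, while libraries 8 and 9 were high. Without wild-type libraries 8, 9 and 12 the median of the list was -0.02.

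Genes that make peroxide or respond to it were examined in the same way. Of 11 tested NADPH oxidase subunits 0 had a p under 0.05, and the phagocyte subunits Cybb (780, 699 and 642 CPM against 913, 1005 and 604 CPM) and Ncf1 (555, 522 and 515 CPM against 639, 719 and 473 CPM) overlapped between the groups. Of 20 NRF2 target and glutathione genes 0 passed the edgeR test. An unadjusted p under 0.05 was found for 3, in both directions, beside 7.43% of all genes. Hmox1, which degrades heme, stood at 285, 286 and 302 CPM against 221, 144 and 256 CPM (log2 difference 0.49, SE 0.216), and Gclm, a subunit of the enzyme that starts glutathione synthesis, at 209, 184 and 196 CPM against 166, 144 and 178 CPM (0.27, SE 0.118). G6pdx, which supplies NADPH, was lower, at 204, 196 and 196 CPM against 255, 306 and 211 CPM (-0.38, SE 0.132). Nqo1, a quinone reductase often used to read NRF2 activity, stood at 11.4, 12.7 and 12.9 CPM against 11.2, 13.4 and 14.9 CPM, with an interval of -0.38 to 0.20, and Txnrd1, the cytosolic thioredoxin reductase, had an interval of -0.26 to 0.03. Of the 10 enzymes that handle ethanol and acetaldehyde, Acss2, an acetyl-CoA synthetase, had the smallest p, at 21.3, 19.8 and 20.8 CPM against 22.3, 27.7 and 24.9 CPM (log2 difference -0.27, SE 0.089), with -0.02 under ethanol. Aldh2 was at 559, 584 and 543 CPM against 621, 687 and 516 CPM, with overlap.

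Besides Cd59a no complement gene passed the test. Of 17 members, 11 were higher and 6 lower, and Cd55 and Cr1l, further membrane regulators of complement, had intervals of -0.21 to 0.21 and -0.10 to 0.13. C3ar1, a receptor for a complement fragment, was at 7.99, 9.13 and 8.22 CPM against 6.88, 6.36 and 7.27 CPM (0.30, SE 0.118). C3 itself overlapped, at 543, 501 and 478 CPM against 664, 692 and 438 CPM.

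Markers of the cells in the sample were read per library. Osteoblast and osteocyte genes were abundant in all 6 libraries, at 2.80% to 5.11% and 0.295% to 0.5003% of all counts, and blood cells remained after the marrow was removed, with erythroid genes at 1.17% to 2.26% and neutrophil genes at 2.45% to 4.24%. Counting error of such a share is at most 0.0102 percentage points to either side (95% Wilson interval, counting error only). The spread of these shares between libraries goes beyond that. With 1 library per pool, differences between mice and between preparations cannot be told apart. In such bulk samples fewer cells of a type and less RNA per cell cannot be told apart. Of 39 gene lists, 31 had a summed share that overlapped between the genotypes. The 8 others were peroxide removal, bone matrix, osteoblast, osteoclast, chondrocyte, erythroid and B cell genes, with a higher share in each knockout library, and hypoxia genes, with a lower one. Among single genes, 14.15% of all tested did not overlap. An exact permutation test of 3 against 3 libraries cannot give a two-sided p under 0.1. The list shares are of unscaled totals, unlike the CPM levels, and wild-type libraries 8 and 9 had the lowest TMM factors under PBS, 0.908 and 0.9345. A summed share also follows its most abundant members. In the scaled levels the peroxide list had a median log2 difference of -0.10, so a higher share need not mean higher genes.

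**Figure D4:**
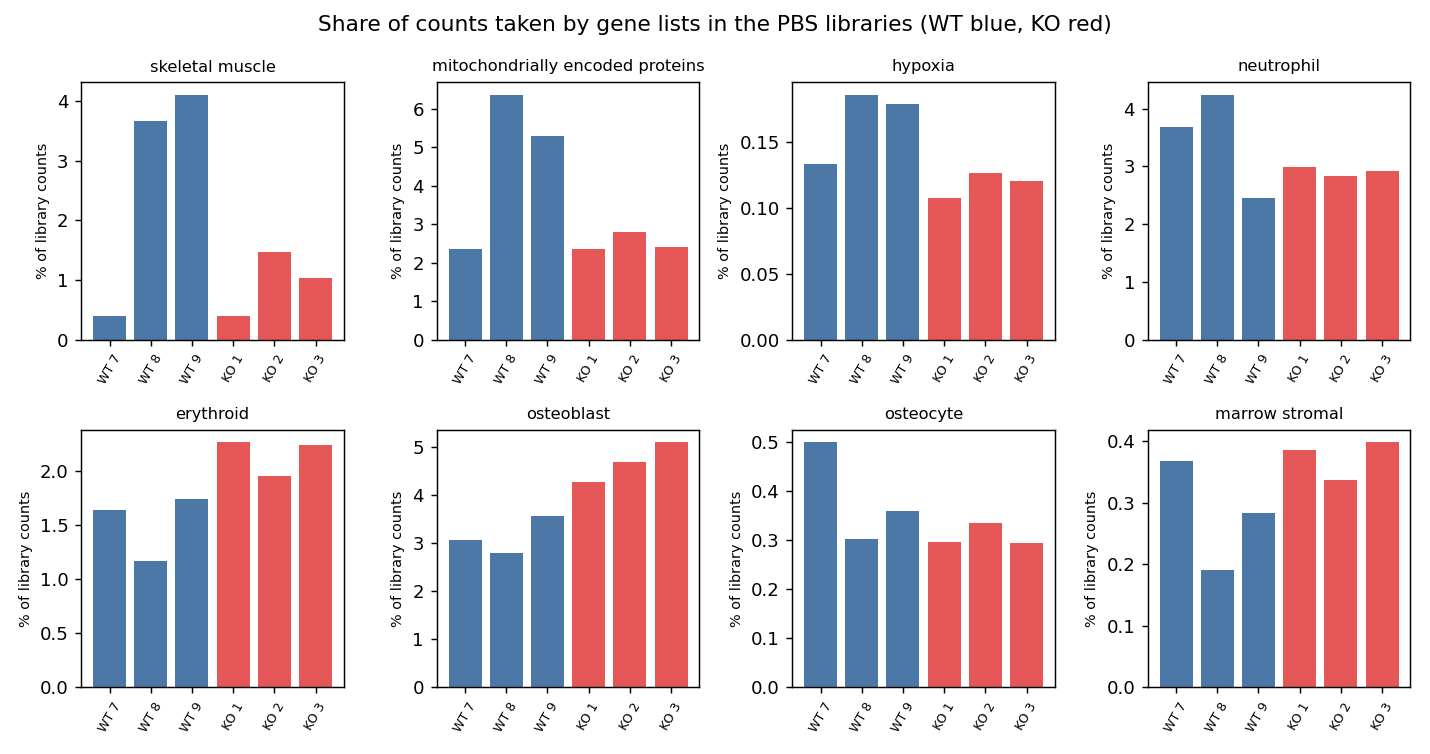
Share of all counts (percent, vertical axes from 0) taken by 8 gene lists in each of the 6 PBS libraries, wild type in blue and knockout in red. Muscle and mitochondrially encoded genes are high in wild-type libraries 8 and 9 and not in library 7, while erythroid and osteoblast genes are higher in all 3 knockout libraries.

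Skeletal muscle genes split the wild-type libraries. The 24 listed genes took 0.402%, 3.66% and 4.11% of counts in wild-type libraries 7, 8 and 9 and 0.391%, 1.46% and 1.03% in knockout libraries 1, 2 and 3. All 24 were lower on average in knockout bone, with a median of -1.63, and 1 had a p under 0.05 (Myh7, the myosin heavy chain of slow muscle, unadjusted p = 0.0499). Mb, the muscle oxygen store myoglobin, stood at 95.01, 159 and 59.8 CPM against 84.3, 936 and 734 CPM. Mitochondrially encoded protein genes took 2.35%, 6.36% and 5.29% of wild-type counts and 2.35%, 2.79% and 2.40% of knockout counts, and all 13 were lower, with a median of -1.01 and 10 at p under 0.05, where 4.14% of all genes were lower at that p. Nuclear genes of the respiratory chain (22 of 22 lower, 13 at p under 0.05, median -0.54) and of fatty acid oxidation (12 of 14 lower, median -0.53) followed the same libraries. Uqcrc2, a subunit of complex III, stood at 109, 118 and 113 CPM against 108, 193 and 181 CPM, and Acadvl, which opens the breakdown of long fatty acids, at 44.4, 48.8 and 46.4 CPM against 45.7, 86.9 and 87.4 CPM.

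In each of these lists wild-type library 7 lay at the knockout level. With the muscle level of each library as a covariate the medians were 0.34 for muscle, -0.40 for mitochondrially encoded, -0.21 for respiratory chain and -0.18 for fatty acid oxidation genes. Without wild-type libraries 8, 9 and 12, the ones richest in muscle counts, they were 1.32, 0.15, 0.15 and 0.15, so the direction turned; library 7 then stands alone for the wild type and is assumed to vary like the other groups. Cat and Cd59a passed the adjusted threshold in both of these fits.

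Erythroid genes were higher in every knockout library under PBS. All 15 members, red cell proteins and regulators, lay above every wild-type library, where 8.98% of all genes did so, with a median of 0.42 under PBS and 0.40 under ethanol. In the ethanol libraries their summed share overlapped between the genotypes, at 2.29%, 2.197% and 2.05% of counts in knockout and 2.19%, 1.86% and 1.104% in wild-type bone. Ermap, a membrane protein gene of red cells, stood at 374, 337 and 344 CPM in knockout bone against 273, 205 and 285 CPM in wild-type bone (log2 difference 0.47, SE 0.206, unadjusted p = 0.047). Gata1, the transcription factor of the lineage, was at 96.2, 89.6 and 97.0 CPM against 74.2, 57.2 and 79.4 CPM (0.42, SE 0.160), and 0.40 under ethanol. The beta globin gene Hbb-bs was at 9189, 7968 and 9555 CPM against 6368, 5327 and 7722 CPM (0.46, SE 0.199); globin copies share reads, so their split is uncertain. None of the 15 passed the edgeR test with adjustment, and 5 had an unadjusted p under 0.05, beside 3.3% of all genes in that direction. The members are co-regulated in 1 cell lineage and are not independent of each other. The median was 0.27 with the muscle covariate and 0.37 without wild-type libraries 8, 9 and 12.

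Osteoblast genes were higher in the PBS libraries. The osteoblast list took 4.29%, 4.69% and 5.11% of knockout counts and 3.07%, 2.80% and 3.56% of wild-type counts. Its median was 0.34, with 15 of 18 higher and 7 above every wild-type library (8.98% of all genes were), while under ethanol the median was -0.10 with 3 of 18 higher. Col1a1, a chain of type I collagen, stood at 16410, 17550 and 19300 CPM against 10690, 11500 and 13610 CPM. The groups did not overlap, yet the log2 difference of 0.57 had an SE of 0.316 (unadjusted p = 0.101), and its ethanol value was -0.07. Runx2, the transcription factor that specifies osteoblasts, was at 110, 118 and 110 CPM against 108, 95.2 and 103 CPM (0.14, SE 0.077), Ibsp, bone sialoprotein, at 782, 962 and 1088 CPM against 691, 621 and 842 CPM (0.40, SE 0.192), and Bglap, osteocalcin, at 683, 829 and 952 CPM against 553, 501 and 671 CPM (0.51, SE 0.420). No osteoblast gene had a p under 0.05. Matrix and collagen processing genes were alike, with 17 of 20 higher, 4 of them without overlap, and a median of 0.17, and Col5a1 stood at 242, 269 and 283 CPM against 180, 192 and 242 CPM (0.37, SE 0.216). The osteoblast median was 0.30 with the muscle covariate and 0.43 without wild-type libraries 8, 9 and 12.

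Osteocyte genes were mostly lower. Of 9, 8 were lower, with a median of -0.27, and 0 had a p under 0.05. Sost, the osteocyte inhibitor of bone formation, stood at 994, 1110 and 990 CPM in knockout bone against 1756, 1233 and 1297 CPM in wild-type bone (log2 difference -0.47, SE 0.294) without overlap, and its ethanol value was 0.08. Mepe, a matrix protein of osteocytes, was at 1010, 1166 and 1010 CPM against 1716, 1138 and 1414 CPM (-0.42, SE 0.229), with overlap. Of 15 osteoclast genes 12 were higher, with a median of 0.10 under PBS and -0.33 under ethanol. Oscar, an osteoclast co-receptor, was at 7.52, 8.40 and 9.46 CPM against 6.24, 6.51 and 7.09 CPM (0.36, SE 0.155, unadjusted p = 0.042), and under ethanol at -0.40. Among 7 regulators of osteoclast formation, Il34, a ligand of the CSF1 receptor, was at 22.5, 22.9 and 26.9 CPM against 19.3, 12.03 and 20.98 CPM (0.47, SE 0.199), with 0.49 under ethanol, and Csf1 at 104, 112 and 115 CPM against 104, 72.3 and 95.1 CPM (0.29, SE 0.155), with 0.10 under ethanol.

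Macrophage and marrow stromal genes were higher in part. Of 12 monocyte and macrophage genes 8 lay above every wild-type library and 6 had an unadjusted p under 0.05, beside 8.98% and 3.3% of all genes in that direction. All 3 complement C1q chains, made by resident macrophages, were higher. C1qc stood at 121, 115 and 129 CPM against 93.3, 79.7 and 98.3 CPM (log2 difference 0.43, SE 0.125, unadjusted p = 0.0053), and C1qa (0.34) and C1qb (0.35) had ethanol values of 0.39 and 0.32. Cd163, the receptor that takes up free hemoglobin, was at 70.4, 67.3 and 74.3 CPM against 55.7, 40.4 and 54.9 CPM (0.49, SE 0.172). The monocyte gene Ly6c2 had the lowest value of the list, -0.26. All 5 stromal genes were higher, with a median of 0.41 under PBS and 0.22 under ethanol. Their summed share overlapped, at 0.386%, 0.336% and 0.398% of knockout counts and 0.3675%, 0.190% and 0.2835% of wild-type counts. Wild-type library 8 was thus the lowest. Kitl, the stem cell factor, stood at 131, 117 and 123 CPM against 103, 69.5 and 106 CPM (0.41, SE 0.177). Its ethanol value was 0.21, with overlapping groups.

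Neutrophil genes were lower on average but overlapped. All 18 had a negative difference, with a median of -0.28 under PBS and -0.20 under ethanol, and wild-type library 9, at 2.45% of counts, was below the knockout libraries at 2.84% to 2.99%. Only Cxcr2, the chemokine receptor of mature neutrophils, had no overlap, at 131, 133 and 125 CPM against 177, 204 and 146 CPM (log2 difference -0.43, SE 0.130, unadjusted p = 0.0062). Ltf, the iron-binding granule protein lactoferrin, was at 3232, 3119 and 2868 CPM against 4064, 5110 and 2807 CPM.

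Genes of DNA replication and mitosis were slightly higher throughout. All 23 members of the cell cycle list had a positive difference, from 0.02 to 0.26, in the PBS libraries and a positive one in the ethanol libraries, with medians of 0.17 and 0.23. In 15 of the 23 every knockout library was above every wild-type library under PBS, where 8.98% of all genes did so. An unadjusted p under 0.05 was found for 6, beside 3.3% of all genes in that direction, and 0 passed the edgeR test with adjustment. Rrm2, which makes deoxynucleotides, stood at 404, 394 and 395 CPM against 343, 310 and 344 CPM (log2 difference 0.26, SE 0.096). Mcm5, part of the replicative helicase, was at 220, 206 and 199 CPM against 187, 181 and 181 CPM (0.19, SE 0.078), with 0.26 under ethanol. All 23 intervals lay within 0.5 of 0, and the median was 0.09 with the muscle covariate and 0.12 without wild-type libraries 8, 9 and 12. Erythroid genes were higher in the same libraries, and the share of dividing red cell precursors in these values was not tested.

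Hypoxia-inducible and unfolded protein response genes were lower under PBS. All 11 hypoxia genes had a negative difference, 5 without overlap (5.16% of all genes had that) and 6 at p under 0.05 (4.14% of all genes), with a median of -0.44 under PBS and -0.19 under ethanol. Slc2a1, the glucose transporter GLUT1, stood at 18.01, 18.1 and 17.5 CPM against 20.5, 21.7 and 24.3 CPM (log2 difference -0.31, SE 0.101, unadjusted p = 0.010), and its ethanol value was 0.12. Vegfa, the endothelial growth factor gene, was at 75.9, 84.4 and 87.0 CPM against 90.3, 126 and 129 CPM (-0.48, SE 0.179), and Pgk1, a glycolytic enzyme, at 185, 212 and 199 CPM against 219, 385 and 304 CPM (-0.61, SE 0.220). Muscle also expresses Pgk1, and its highest levels were in wild-type libraries 8 and 9; the median of the list was -0.27 with the muscle covariate and -0.14 without wild-type libraries 8, 9 and 12.

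The 12 unfolded protein response genes were all lower by little, with a median of -0.08 under PBS and 0.05 under ethanol, and 6 had no overlap, beside 5.16% of all genes in that direction. Sdf2l1, an endoplasmic reticulum co-chaperone, was at 32.3, 34.7 and 32.6 CPM against 38.9, 39.8 and 35.8 CPM (-0.20, SE 0.071), and Xbp1, the transcription factor of the response, at 156, 159 and 167 CPM against 172, 175 and 179 CPM (-0.13, SE 0.062). All 12 intervals lay within 0.5 of 0. Of the other stress lists, the integrated stress response had a median of -0.003 with 0 of 12 at p under 0.05, heat shock genes -0.15 with 0 of 9, and inflammatory NF-kB genes 0.04 with 1 of 11, Il1b, whose groups overlapped at 19.8 to 22.3 CPM against 19.8 to 29.6 CPM.

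**Figure D5:**
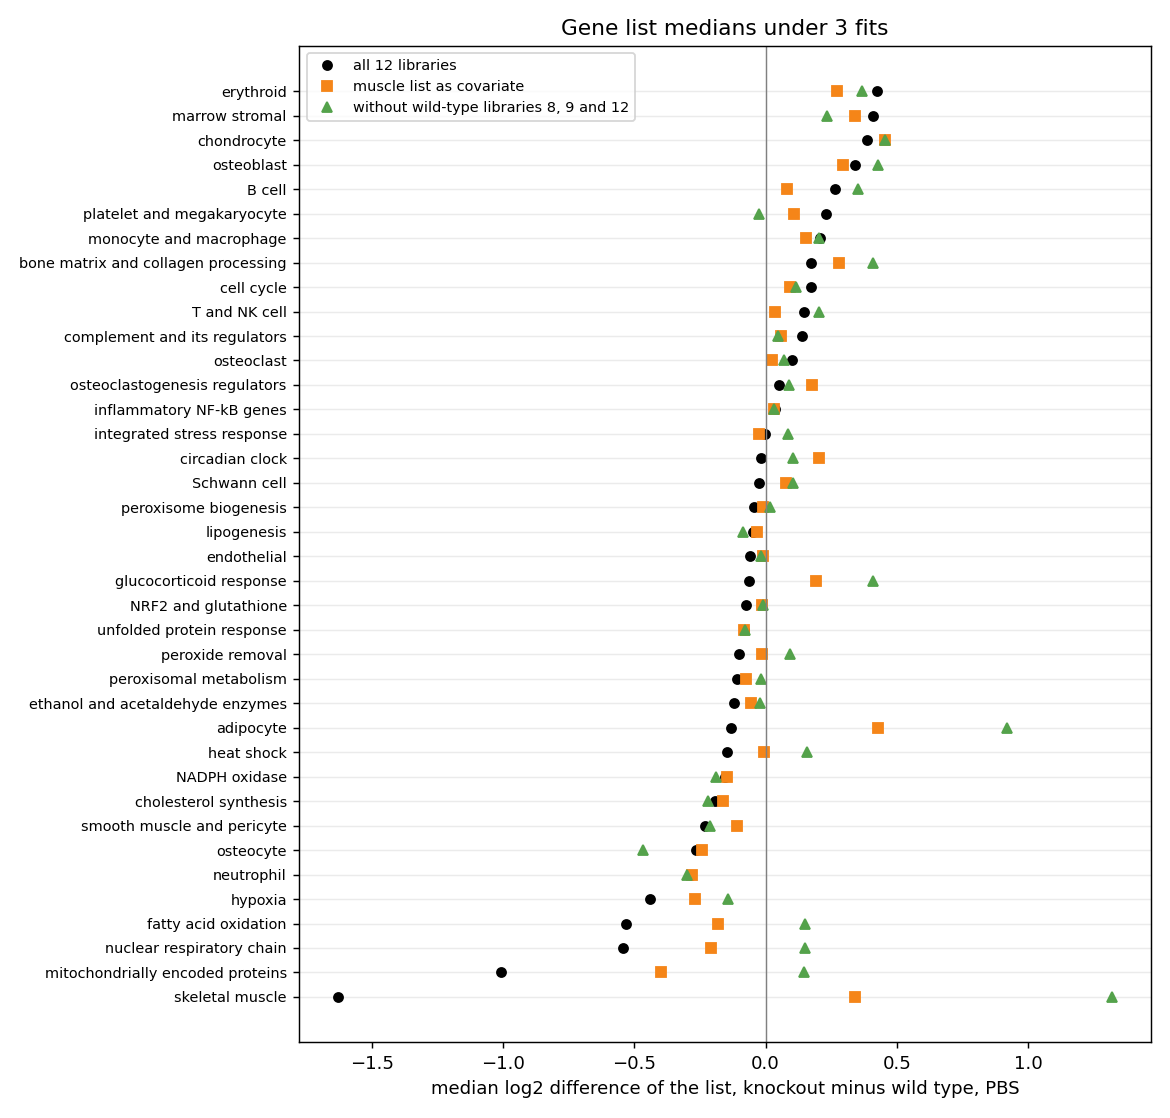
Median log2 difference, knockout minus wild type under PBS (horizontal axis), of 38 gene lists in 3 fits: all 12 libraries (circles), with the muscle level as covariate (squares) and without wild-type libraries 8, 9 and 12 (triangles). Muscle, mitochondrial and fatty acid oxidation medians move across 0 between fits, while erythroid, osteoblast, cell cycle, hypoxia and neutrophil medians keep their side; the mast cell list, with 1 tested gene, is left out.

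The remaining lists had few or no members at p under 0.05. Of 17 cholesterol synthesis genes 15 were lower, with a median of -0.19, and Hmgcs1, an early enzyme of the pathway, stood at 44.2, 41.1 and 44.1 CPM against 51.8, 52.0 and 46.3 CPM (log2 difference -0.22, SE 0.090). Of 9 glucocorticoid response genes, Errfi1, an inhibitor of EGF receptor signalling, was at 39.9, 44.2 and 40.9 CPM against 31.4, 31.5 and 33.7 CPM (0.37, SE 0.114, unadjusted p = 0.0071). Of 14 clock genes Cry1, a repressor of the clock, was at 23.1, 27.0 and 27.1 CPM against 27.9, 30.7 and 28.99 CPM (-0.18, SE 0.077). Platelet genes were all 10 higher, with a median of 0.23 and 0 at p under 0.05, and B cell genes were 12 of 13 higher, also with 0. Endothelial, T and NK cell, smooth muscle, Schwann cell, chondrocyte and lipogenesis genes had 0 members at p under 0.05. Adipoq, the fat cell hormone adiponectin, was at 71.0, 59.0 and 81.5 CPM against 52.0, 32.6 and 59.3 CPM (0.55, SE 0.233), while the adipocyte list as a whole had 7 of 10 lower.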

How the data were processed

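Femoral shaft RNA of 12 libraries, 3 in each of 4 groups of genotype and gavage, was sequenced. Per the submitters' processing notes, Trimmomatic 0.36, STAR 2.5.2b, featureCounts and Subread 1.5.2 were used with the GRCm38 build; their settings, the annotation and the strand mode were not stated there. The authors deposited whole-number counts for 49315 genes, and a second deposited table of normalized signal, in which each library's counts are divided by 1 factor, for 17408 genes with a mean count above 10. Library totals were 19950222 to 28789308 counts. Symbols came from GENCODE M21 for 49056 identifiers.

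The counts were fitted with edgeR 4.0.16 (quasi-likelihood, robust) in R 4.3.3 over all 4 groups, which share the estimate of spread, after TMM scaling and filterByExpr (minimum count 10, total 15). The contrast was knockout minus wild type under PBS. An SE is the log2 difference over the root of the F statistic, and intervals cover 95%. DESeq2 1.42.0, limma 3.58.1 (voom on the counts, and trend on the log2 of the deposited signal plus 1), RLE scaling, other filters, only the 6 PBS libraries, the muscle covariate and fits that leave out libraries were alternatives. The test was checked on simulated counts.

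Named genes were those with an adjusted p under 0.05, the 12 higher and 12 lower with the smallest unadjusted p (mean of at least 1 CPM, no predicted symbol, pseudogene or antigen receptor segment, no overlap between groups), up to 4 members of each of 39 gene lists with the smallest unadjusted p, any member of the peroxide, oxidase, peroxisome and ethanol lists, and genes near Cat with an unadjusted p under 0.05; Bglap, Nqo1, Cd55, Cr1l, C3 and Ly6c2 lie outside this rule and were named after their values were seen. The genes, lists and region were chosen with earlier results of these data known, so they are no independent evidence. Leaving out wild-type libraries 8, 9 and 12 takes out the 3 libraries with the highest muscle share. Some genes that this rule would name are counted in their lists and are not reported here.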

Additional observations from a re-analysis of the deposited data

How the results depend on the processing

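The calls of Cat and Cd59a held under every alternative run but one, and no alternative turned the sign of either. With only the 6 PBS libraries in the edgeR fit, Cd59a was at -1.54 with an adjusted p of 0.055. In that fit 1 gene passed the test as lower, Cat at an adjusted p of 0.048, and 2 as higher (Gm15564 and Gm42418). Without wild-type libraries 8, 9 and 12, 3 genes passed as lower, Slfn4 being added; wild-type library 7 was then alone under PBS and is assumed to vary like the other groups. Every other setting gave 0 higher and 2 lower genes. Counts at an unadjusted p under 0.05, 599 higher and 751 lower, were 319 and 316 without knockout 1, 410 and 466 without knockout 2, 270 and 340 without knockout 3, 925 and 868 without wild-type 9, and 387 and 489 with the muscle covariate; those without wild-type 7 or 8 stand beside the first count. With RLE scaling, chosen for this count after seeing the data, groups did not overlap in 1812 genes higher and 834 lower in knockout, against 1631 and 938. Of the named genes, these changed sign without wild-type libraries 8, 9 and 12: Abcd3 (0.025), Acadvl (0.027), Cd55 (0.094), Gnpat (0.0044), Mb (0.31), Nqo1 (0.15), Pex11a (0.038), Pex14 (0.15), Sod2 (0.10), Txnrd1 (0.016) and Uqcrc2 (0.074). Cd55 was at 0.0022 with RLE scaling, 0.0024 with DESeq2 and 0.0040 with limma-trend on the deposited signal, and Nqo1 at 0.053 with the muscle covariate. Leaving out 1 library at a time, Aldh2 ranged from -0.21 to 0.0028, Cd55 from -0.051 to 0.067, Cr1l from -0.022 to 0.049, Nqo1 from -0.19 to 0.021, Pex14 from -0.15 to 0.056 and Prdx1 from -0.028 to 0.048. Of 39 list medians, 14 turned sign without wild-type libraries 8, 9 and 12, and 7 without wild-type library 9. The cause of these changes was not tested. No paired analysis was possible because the labels number the libraries 1 to 12 across the groups, so no number is shared. Genes with few counts, such as Elf5, have the least precise values.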

Other observations

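The enzymes that make heme, the group that catalase carries in its active site, were looked at after Alad and Urod had been seen among the genes with the same sign and an unadjusted p under 0.05 in both gavages, so the set is a description and gets no test. All 7 enzymes of the pathway reported here were higher in knockout bone on average, under PBS and under ethanol. In 6 of the 7 the PBS groups did not overlap, beside 8.98% of all genes in that direction. That count includes Alad and Urod, which led to the set, and Alas2, which is also in the erythroid list. Alad, the second enzyme, stood at 129.8, 129.6 and 136 CPM in the knockout libraries against 95.97, 82.5 and 118 CPM in the wild types (log2 difference 0.42 under PBS and 0.47 under ethanol). Urod stood at 195, 183 and 198 CPM against 152, 137 and 172 CPM (0.32 and 0.34). Fech, which inserts the iron, stood at 444, 418 and 436 CPM against 344, 314 and 390.0 CPM (0.31 in each gavage). Alas2 (0.38), Uros (0.37), Cpox (0.35) and Ppox (0.28) lay close to these values. The erythroid genes had a median of 0.42 in the same comparison, and their part in the heme enzymes was not tested.

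A further 7 genes had an unadjusted p under 0.01 and the same sign in both gavages but lie away from Cat: Phyhip, Mir703, Cln8, Ifngr2, Gm7658, Gm15533 and 5031439G07Rik. Cln8, an endoplasmic reticulum protein needed for lysosomal enzymes, was higher by 0.26 under PBS and 0.25 under ethanol. Ifngr2, a chain of the interferon gamma receptor, stood at 72.7, 71.7 and 72.0 CPM in knockout bone against 82.3, 88.3 and 78.9 CPM in wild-type bone (-0.20), and at -0.30 under ethanol. Fam213a, which encodes a peroxiredoxin-like protein, was close to that limit, at 114, 105 and 112 CPM against 85.95, 81.1 and 98.4 CPM (0.32), with 0.34 under ethanol. Mertk, a receptor for dying cells, had differences of 0.33 under PBS and 0.27 under ethanol, and Siglec1, a macrophage lectin, of 0.44 and 0.42, with overlapping groups under ethanol. Il1rn, the interleukin 1 receptor antagonist, had differences of -0.30 and -0.39, and Acod1, which makes itaconate in activated macrophages, of -0.67 and -0.49 at under 4 CPM. Mertk, Siglec1 and Il1rn lie on chromosome 2, as Cat does, but outside the 10 Mb to either side of it. Apart from Phyhip and Mir703, which the rule named, the genes of this paragraph were named after their values were seen. Both gavages share the estimate of spread, so their p-values are not independent.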
